A study of Sus scrofa with 6 samples.

Results

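The metalloproteinases and tissue inhibitors described here are the ADAM, ADAMTS, ADAMTSL, MMP and TIMP genes in RNA sequencing of the longissimus dorsi, the long loin muscle of the pig. Members were the rows of the deposited gene table whose symbol begins with one of those 5 family names followed by a digit, leaving out rows on the sex chromosomes. Of 25322 rows, 62 matched, 1 on X (TIMP1) was left out, and 61 remained: 19 ADAM, 17 ADAMTS, 4 ADAMTSL, 18 MMP and 3 TIMP rows. They carry 59 distinct symbols, because ADAM17 and ADAMTS1 each stand on 2 rows. The study compared 3 libraries from Wei pigs, labelled YH, with 3 from Yorkshire pigs, labelled LWH. Wei pigs had commercial feed and water freely available until slaughter at 90 kg, and Yorkshire pigs were kept under conditions described as similar, with no slaughter weight of their own given. No treatment or engineered allele is named for either breed. The labels give neither sex nor age and do not say whether each library is 1 animal or a pool, so what a p-value sets a difference against is how far these libraries vary, and that variation may be technical.

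All 5 families belong to the machinery that cuts the extracellular matrix and the proteins at the cell surface. MMPs are zinc proteases made as inactive proenzymes that cut collagens, gelatin and other matrix proteins. ADAMs sit in the membrane and many of them release the outer parts of growth factors, cytokines and receptors. ADAMTS enzymes are secreted and cut large proteoglycans or trim procollagens, and ADAMTSL proteins resemble them but lack the protease domain. TIMPs bind the active site of the proteases and block it. In skeletal muscle much of this system is made by the connective tissue cells around the fibres, and it is known to take part in growth, fibre repair and fibrosis.

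The 6 libraries held between 15285197 and 27096747 counts. The 6 of 10 skeletal muscle fibre markers found in the table summed to between 82437 and 158507 CPM (counts per 1000000) in each library, so markers of the labelled tissue were abundant in all 6. The Wei replicate 2 library stood apart in its reads from the Y chromosome, with 6901 counts against 8 to 14 in each of the other 5. The Yorkshire replicate 3 library stood apart in immune markers: the 10 macrophage markers summed to 171 CPM there and to between 40.7 and 51.8 CPM in the other libraries, and the 10 lymphocyte markers to 25.9 CPM against 3.13 to 6.53 CPM. Among the 39 tested members, leaving out a single library turned the sign of 7 rows that were not called (ADAM19, ADAM33, ADAMTS5, MMP15, MMP27 and 1 row each of ADAM17 and ADAMTS1) and of no called gene, and the calls that were lost are given with each gene.

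CPM are the deposited counts scaled to library size and TMM factor (edgeR's correction for library composition), and they compare libraries for 1 gene. FPKM are the deposited values per length of transcript, and they are used to compare levels between genes. Log2 fold changes are Wei over Yorkshire from edgeR's quasi-likelihood fit with their standard error (SE), so a negative value is lower in Wei. A gene was called at a Benjamini-Hochberg adjusted p under 0.05 over all 13209 genes tested.

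In Wei muscle 4 metalloproteinase genes were lower: ADAMTS2, which trims the amino-terminal propeptide from fibrillar procollagens, ADAMTS20 and ADAMTS12, secreted matrix proteases, and ADAM12, a membrane protease linked to muscle repair. Of the 61 members 39 had enough reads to be tested, and those 4 are 10.3% of them, against 2.35% of all genes tested that edgeR called lower. None of the 39 was called higher by edgeR, where 2.73% of all genes were, and DESeq2 and limma voom called none higher either. At an unadjusted p under 0.05, 15 members were lower and 2 higher, where 11.8% of all genes tested were lower and 11.4% higher. The fitted log2 fold change was negative for 30 of the 39 and positive for 9, with a median of -0.47, while the median over all 13209 genes was -0.023.

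The per-library values gave the same picture of a lean to one side. In 13 of the 39 members (33.3%) all 3 Wei libraries lay below all 3 Yorkshire libraries in CPM, which was so for 15.3% of all genes tested. In 1 member, TIMP2, all 3 Wei libraries lay above, which was so for 14.3% of all genes. Wei replicate 1 held the lowest value in 16 of the 39 members and the highest in 0, and Yorkshire replicate 3 held the highest in 16 and the lowest in 0. Of the 39, 1 member, ADAM12, had no Wei library above the low-count cutoff of 0.494 counts per 1000000 of unscaled library size and was tested because of its Yorkshire reads.

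**Figure D1:**
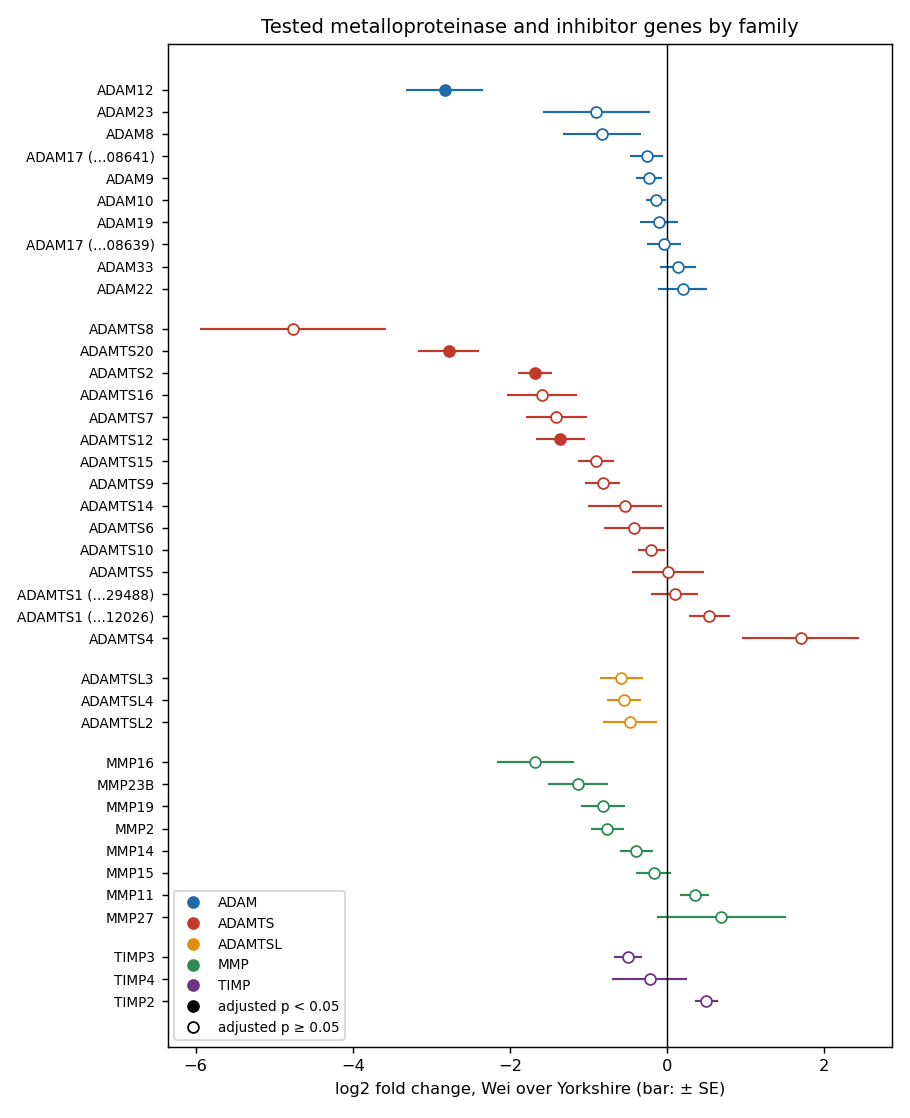
Log2 fold change of each tested member, Wei over Yorkshire, from edgeR (horizontal axis, with bars of 1 SE), grouped and coloured by family. Filled points passed an adjusted p of 0.05 (4 genes, all negative), and open points did not (35 genes). ADAMTS8, at -4.76, has the lowest value and the longest bar.

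The 22 members that were not tested had at most 40 counts summed over all 6 libraries. Among them 8, ADAM18, ADAM21, ADAM29, ADAM30, MMP1, MMP3, MMP7 and MMP20, had no read in any library, which allows a level of up to 0.0241 CPM over the libraries together, counting error only.

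The summed fibroblast markers were also lower in the Wei libraries. All 9 of its 10 genes that the table names had negative fold changes, with a median of -0.73, and their summed level was 2095, 3450 and 3161 CPM in the Yorkshire libraries and 586, 1621 and 1304 CPM in the Wei libraries, without overlap. The collagen genes COL1A2 and COL3A1 made up most of that sum: without them the other 7 summed to 418, 625 and 574 CPM in Yorkshire and 292, 505 and 432 CPM in Wei, which overlap, and taken one by one 6 of the 9 overlapped between breeds. Of the 9, 1 gene, DPT (dermatopontin, a matrix protein of connective tissue), was called lower by edgeR and by limma voom, DESeq2 called 4 lower, and 4 had an unadjusted p under 0.05 in edgeR. DPT stayed called in 3 of the 6 fits that left out a library. Of all genes tested, edgeR called 2.35% lower and DESeq2 3.79%. In edgeR 11.8% were lower at an unadjusted p under 0.05, and 15.3% were lower in Wei without overlap. None of the 9 was at 0. The part of the fibroblasts in the protease results was not tested, and in whole tissue fewer cells of a type and less RNA per cell cannot be told apart. The endothelial list (median -0.10) and the smooth muscle and pericyte list (median -0.12) had no gene called by edgeR among 8 and 7 tested, with 1 and 4 at an unadjusted p under 0.05 and none called by DESeq2 or limma voom.

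ADAMTS enzymes gave 3 of the 4 calls. Of 17 rows 15 were tested, 3 were called lower and 11 had negative fold changes, with a median of -0.82. In 8 of the 15 (53.3%) the Wei libraries all lay below the Yorkshire libraries, which was so for 15.3% of all genes tested. The share of tested ADAMTS members called, 20%, stands against the 2.35% of all genes. Summed over the family, deposited FPKM was 148, 26.8 and 56.3 in the Yorkshire libraries and 20.3, 20.8 and 12.3 in the Wei libraries. A large and uneven part of those sums was ADAMTS8 alone, at 87.2%, 27.8% and 54.7% in Yorkshire and 27%, 4.16% and 4.12% in Wei.

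ADAMTS2 is the procollagen N-propeptidase, whose loss causes fragile skin in cattle and people. It lies at chr2:80749844-81010536 in the Sscrofa10.2 assembly, the build of the deposited table. Its level was 14.7, 17.8 and 22.4 CPM in the Yorkshire libraries and 4.56, 7.02 and 5.63 CPM in the Wei libraries. Every Wei library was below every Yorkshire library, with means of 18.3 ± 3.87 and 5.73 ± 1.24 CPM (SD, n = 3 each). The log2 fold change was -1.68 ± 0.22 (SE), a level 3.20-fold lower in Wei, with an edgeR adjusted p of 0.0109. The call held in 5 of the 6 fits that left out a library and was missed without Yorkshire replicate 2 (adjusted p = 0.0511). The other 2 genes of this role were nearly silent or did not pass. ADAMTS14 had a log2 fold change of -0.53 ± 0.47, with 0.245 to 0.608 CPM in the 6 libraries, and ADAMTS3 had 0 to 0.111 CPM and was not tested.

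ADAMTS20, known from the belted coat colour of mice and for cutting the proteoglycan versican, is at chr5:77324374-77484603. Its level was 19.4, 19.0 and 21.5 CPM in the Yorkshire libraries and 4.56, 3.12 and 1.13 CPM in the Wei libraries. The Yorkshire libraries were close to one another and far above the Wei libraries, which spread over a wider relative range. The log2 fold change was -2.78 ± 0.39, 6.88-fold lower in Wei, with an edgeR adjusted p of 0.0120. This call too held in 5 of the 6 fits with a library left out, and was missed without Yorkshire replicate 2 (adjusted p = 0.0566).

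ADAMTS12 and ADAMTS7 are a related pair that cut cartilage oligomeric matrix protein. ADAMTS12, at chr16:20237302-20549746, had 3.52, 4.42 and 6.23 CPM in the Yorkshire libraries and 1.24, 1.95 and 2.30 CPM in the Wei libraries. The groups did not overlap, and the log2 fold change was -1.36 ± 0.31 with an edgeR adjusted p of 0.0465. Of the 4 calls it was the 1 missed in all 6 fits with a library left out (adjusted p from 0.0564 to 0.124) and by limma voom (adjusted p = 0.0589). Its interval overlaps that of TARS, a threonyl-tRNA synthetase gene, whose own log2 fold change was -0.12 ± 0.22 (edgeR adjusted p = 0.787). ADAMTS7 did not pass, at 1.37, 0.996 and 0.838 CPM in Yorkshire and 0.532, 0.325 and 0.343 CPM in Wei, a log2 fold change of -1.41 ± 0.39 and an edgeR adjusted p of 0.0745. The gene of their shared substrate, COMP, had 0 to 0.234 CPM in the 6 libraries and was not tested.

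ADAMTS8 had the most uneven values of any member. It is a secreted protease described as an inhibitor of blood vessel growth, at chr9:63361521-63380850. Its level was 429, 23.1 and 90.5 CPM in the Yorkshire libraries and 15.6, 2.80 and 1.76 CPM in the Wei libraries. All 3 Wei libraries were below all 3 Yorkshire libraries, yet the highest and lowest Yorkshire libraries were further apart than the lowest Yorkshire and the highest Wei library. The log2 fold change was -4.76 ± 1.18 and the edgeR adjusted p was 0.0571, so the difference was not called. It was called by DESeq2 (adjusted p = 0.0083), with library size as the only scaling (0.0466) and with no count filter (0.0252), and over the fits that left out a library its fold change ran from -3.09 without Yorkshire replicate 1 to -6.32 without Wei replicate 1.

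The spread of ADAMTS8 within a breed was itself large. The SD of its log2 CPM was 2.11 over the Yorkshire libraries, rank 15 of 13209 tested genes counted from the largest, where the median gene had 0.21. Over the Wei libraries the SD was 1.63, rank 56, where the median gene had 0.24. In deposited FPKM, ADAMTS8 made up 87.2% of the whole ADAMTS family in Yorkshire replicate 1, 27.8% in replicate 2 and 54.7% in replicate 3, and 27%, 4.16% and 4.12% in the Wei libraries. A single gene therefore carried most of the family's difference in summed level in Yorkshire replicate 1.

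ADAMTS15, a versican-cutting protease expressed in developing muscle, starts 17.3 kb from the end of ADAMTS8 on chromosome 9. Its level was 5.90, 8.24 and 9.44 CPM in the Yorkshire libraries and 3.43, 4.62 and 4.55 CPM in the Wei libraries. The groups did not overlap, but the Yorkshire library that was highest for ADAMTS8 was the lowest for ADAMTS15. At -0.90 ± 0.23 on the log2 scale, it did not pass (edgeR adjusted p = 0.0627). DESeq2 called it (adjusted p = 0.0231).

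**Figure D2:**
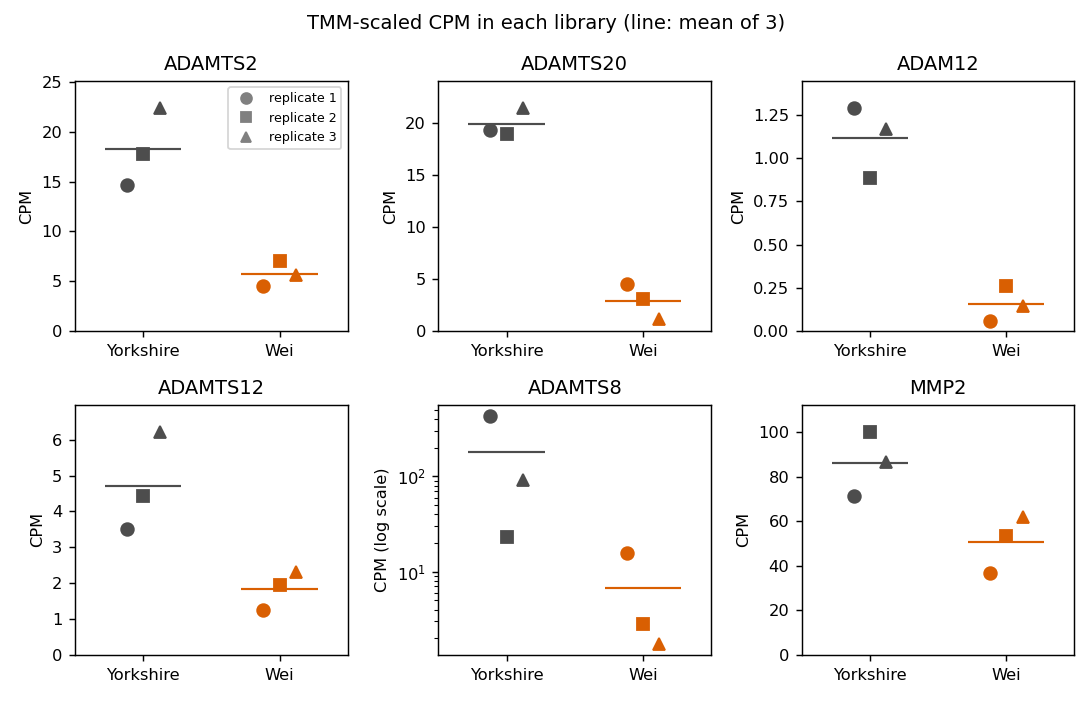
CPM of the members with the main results in each library, Yorkshire and Wei on the horizontal axis, with marker shapes for the replicates and lines for the means of 3 (ADAMTS8 on a log axis). The Wei values of ADAMTS2 (4.56 to 7.02 CPM) and ADAMTS20 (1.13 to 4.56 CPM) lie below all Yorkshire values, while the Yorkshire values of ADAMTS8 run from 23.1 to 429 CPM.

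Of the other proteoglycan-cutting ADAMTS genes, ADAMTS9 had 12.5, 19.5 and 22.8 CPM in the Yorkshire libraries and 10.5, 10.3 and 10.2 CPM in the Wei libraries. Its Wei values were almost identical and all below the Yorkshire values. Its log2 fold change of -0.82 ± 0.22 had an edgeR adjusted p of 0.0705. It was called by DESeq2 (adjusted p = 0.0211) and, in edgeR, without Yorkshire replicate 1 (0.0282). ADAMTS16, whose substrates are less well known, had 2.42, 2.60 and 1.71 CPM in Yorkshire and 0.296, 0.715 and 1.17 CPM in Wei, a log2 fold change of -1.59 ± 0.45 and an edgeR adjusted p of 0.0792, and DESeq2 called it (adjusted p = 0.0263).

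The proteoglycanases ADAMTS1, ADAMTS4 and ADAMTS5 did not share the lean of their family. ADAMTS4, known as aggrecanase 1, had the highest fitted fold change of all members, 1.7 ± 0.75 (edgeR adjusted p = 0.214), with 1.52, 0.221 and 0.874 CPM in Yorkshire and 1.6, 6.18 and 1.17 CPM in Wei. The Wei replicate 2 library alone was high, and the others overlapped. The ADAMTS1 row with the higher FPKM (ENSSSCG00000012026) had 15.9, 9.40 and 16.8 CPM in Yorkshire and 19.5, 26.2 and 16.0 CPM in Wei, a log2 fold change of 0.54 ± 0.26 (edgeR adjusted p = 0.247). The other ADAMTS1 row (ENSSSCG00000029488) had 0.10 ± 0.30, and ADAMTS5, aggrecanase 2, had 0.01 ± 0.46. These 4 rows were each highest in Wei replicate 2, the library with the Y chromosome reads. Without it ADAMTS4 was at 0.63 and the first ADAMTS1 row at 0.34, while the other ADAMTS1 row and ADAMTS5 turned negative, at -0.32 and -0.57. ADAMTS5 was also negative, at -0.05, with library size as the only scaling. ADAMTS6 and ADAMTS10, linked to fibrillin microfibrils, had log2 fold changes of -0.42 ± 0.38 and -0.20 ± 0.17, and ADAMTS13, which cuts von Willebrand factor in blood, had at most 0.296 CPM in a library and was not tested.

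ADAM genes gave 1 call. Of 19 rows 10 were tested, and the median log2 fold change was -0.19, with 8 negative and 2 positive. The share of tested ADAM members called lower, 10%, stands against the 2.35% of all genes. In 1 of the 10 (10%) the Wei libraries all lay below the Yorkshire libraries, which was so for 15.3% of all genes tested. Summed deposited FPKM of the family was 20.2, 23.0 and 29.3 in the Yorkshire libraries and 20.8, 20.4 and 21.0 in the Wei libraries, which overlap.

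The gene called lower was ADAM12, or meltrin alpha, named for its part in myoblast fusion and known to be made in regenerating muscle. It lies at chr14:146937523-147045431. It was read by few fragments: 33, 16 and 32 counts in the Yorkshire libraries and 1, 4 and 3 counts in the Wei libraries. In CPM this was 1.29, 0.885 and 1.17 against 0.0592, 0.260 and 0.147, with every Wei library lower. The log2 fold change was -2.83 ± 0.49, 7.11-fold lower in Wei, with an edgeR adjusted p of 0.0224. With so few Wei reads the gene passed the count filter through its Yorkshire libraries. The call held in 1 of 6 fits with a library left out, the one without Wei replicate 2 (adjusted p = 0.0316), and in the others the adjusted p ran from 0.0564 to 0.0723.

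Beside ADAM12, the satellite cell and myoblast list had 2 of 8 tested genes called lower by edgeR, where 2.35% of all genes tested were. MEGF10, a receptor of satellite cells, was at -1.67 ± 0.37 (edgeR adjusted p = 0.0429). It was missed by limma voom and in all 6 fits with a library left out (adjusted p from 0.0663 to 0.112). CHRNG, the fetal subunit of the acetylcholine receptor, was at -4.57 ± 0.60 (edgeR adjusted p = 0.0102). It had 54, 37 and 46 counts in Yorkshire and 3, 0 and 1 in Wei. Like ADAM12, it had no Wei library above the low-count cutoff and was tested because of its Yorkshire reads. Of the 8, 7 had negative fold changes, with a median of -0.42. The summed level of the list overlapped between breeds, at 179, 119 and 124 CPM in Yorkshire and 119, 123 and 113 CPM in Wei, and none of the 8 was at 0 in all libraries. The part of these cells in the ADAM12 result was not tested.

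The sheddases with the highest levels did not pass the test. ADAM9 had 18.4, 23.3 and 25.5 CPM in Yorkshire and 17.3, 20.3 and 19.4 CPM in Wei, a log2 fold change of -0.23 ± 0.16 (edgeR adjusted p = 0.408). ADAM10, which releases the outer part of Notch receptors, had 21.7, 24.4 and 27.2 CPM in Yorkshire and 22.0, 21.8 and 22.8 CPM in Wei, at -0.14 ± 0.13 (edgeR adjusted p = 0.564). Both genes had overlapping groups. ADAM17, the enzyme that releases tumour necrosis factor, stands on 2 rows 54.1 kb apart at -0.26 ± 0.21 and -0.04 ± 0.22, and which row holds which part of the gene is not stated in the table. ADAM19, which is close to ADAM12, was at -0.10 ± 0.24 and ADAM33 at 0.14 ± 0.23. None of these 6 rows passed (edgeR), and none had an unadjusted p under 0.05.

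ADAM8 and ADAM28, made largely by leukocytes, were highest in the Yorkshire library with the high immune markers. ADAM8 had 1.25, 0.442 and 1.89 CPM in Yorkshire and 0.651, 0.715 and 0.685 CPM in Wei, a log2 fold change of -0.83 ± 0.50 (edgeR adjusted p = 0.346). ADAM28 had 0.0391, 0 and 0.510 CPM in Yorkshire and 0.0592, 0 and 0.0489 CPM in Wei and was not tested. In Yorkshire replicate 3 the macrophage sum was 171 CPM and the lymphocyte sum 25.9 CPM. All 8 tested macrophage markers and all 5 tested lymphocyte markers had negative fold changes (medians -0.92 and -1.59). None of them was called by edgeR or limma voom, while DESeq2 called 1 in each list, and 1 and 4 had an unadjusted p under 0.05 in edgeR. Of all genes tested, 11.8% were lower at that unadjusted p in edgeR, and DESeq2 called 3.79% of its tested genes lower. The part of immune cells in the values of these ADAM genes was not tested.

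ADAM22 and ADAM23, receptors of nerve cells without protease activity, were tested at 0.20 ± 0.31 and -0.90 ± 0.68. ADAM23 varied widely, with 0.313, 1.99 and 1.38 CPM in Yorkshire and 0.355, 0.455 and 1.08 CPM in Wei. The 7 ADAM genes known mainly from the male reproductive tract (ADAM2, ADAM7, ADAM18, ADAM21, ADAM29, ADAM30 and ADAM32) were all untested, 4 of them with no read at all.

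ADAMTSL genes leaned lower without a call. Of 4 rows 3 were tested, all with negative fold changes (median -0.55), 0 were called by edgeR, DESeq2 or limma voom, and 1 had an unadjusted p under 0.05. ADAMTSL4, a fibrillin-binding protein of the lens suspension, had 6.96, 7.96 and 8.42 CPM in Yorkshire and 4.20, 7.02 and 4.80 CPM in Wei, at -0.55 ± 0.22 (edgeR adjusted p = 0.188). ADAMTSL3 had 5.98, 5.70 and 9.18 CPM in Yorkshire and 4.26, 6.11 and 3.72 CPM in Wei, at -0.58 ± 0.27 (edgeR adjusted p = 0.237). In both genes Wei replicate 2 reached into the Yorkshire range. ADAMTSL2, which binds fibrillin and a latent TGF-beta binding protein, was at -0.47 ± 0.34.

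MMP genes gave no call in edgeR. Of 18 rows 8 were tested, 6 with negative and 2 with positive fold changes, and the median was -0.57. In 4 of the 8 (50%), MMP2, MMP16, MMP19 and MMP23B, all Wei libraries lay below all Yorkshire libraries. Among all genes tested 15.3% did so, and 11.8% were lower at an unadjusted p under 0.05. The same 4 MMP genes had an unadjusted p under 0.05. DESeq2 called 1 of them, MMP2, and limma voom 0. Summed FPKM of the family was 45.2, 62.8 and 55.5 in Yorkshire and 37.3, 35.9 and 40.9 in Wei, without overlap.

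MMP2, or gelatinase A, cuts denatured collagens and the type IV collagen of basement membranes. It was the MMP with the highest level per length in all 6 libraries, and it lies at chr6:27526398-27553927. Its level was 71.5, 100.2 and 86.4 CPM in the Yorkshire libraries and 36.6, 53.2 and 62.0 CPM in the Wei libraries, and in deposited FPKM 23.9, 35.9 and 32.7 against 14.4, 18.4 and 19.9. On both scales every Wei library was below every Yorkshire library. The log2 fold change was -0.76 ± 0.21 with an edgeR adjusted p of 0.0756, and the DESeq2 adjusted p was 0.0194. MMP2 made up 52.9%, 57.2% and 59.0% of the family's FPKM in Yorkshire and 38.6%, 51.2% and 48.6% in Wei. MMP9, or gelatinase B, a product of neutrophils and macrophages, had at most 3 counts in a library.

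Membrane-type MMPs act at the cell surface, and MMP14 is the main activator of the MMP2 proenzyme. MMP14 had 14.0, 16.2 and 18.9 CPM in Yorkshire and 8.93, 13.8 and 14.8 CPM in Wei, a log2 fold change of -0.39 ± 0.21 (edgeR adjusted p = 0.317). MMP15 had the largest mean FPKM of the family after MMP2, with 42.2, 42.8 and 30.8 CPM in Yorkshire and 39.8, 23.9 and 39.2 CPM in Wei. Its groups overlapped, and its log2 fold change of -0.17 ± 0.22 (edgeR adjusted p = 0.684) became 0.04 without Wei replicate 2. MMP16 was scarce, at 1.29, 1.66 and 1.28 CPM in Yorkshire and 0.118, 0.585 and 0.587 CPM in Wei, a log2 fold change of -1.68 ± 0.49 (edgeR adjusted p = 0.0852). MMP17 and MMP25 were not tested.

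Of the remaining MMPs, MMP19 was at -0.82 ± 0.28 (edgeR adjusted p = 0.121) and MMP23B, which has an unusual short structure and a membrane anchor, at -1.13 ± 0.38 (edgeR adjusted p = 0.115). MMP11, or stromelysin 3, had a positive value, 0.35 ± 0.18 (edgeR adjusted p = 0.290), with 8.17, 10.7 and 8.56 CPM in Yorkshire and 12.2, 9.56 and 13.0 CPM in Wei. A group of 8 MMP genes lies side by side at chr9:37133037-37504552: MMP7, MMP20, MMP27, MMP8, MMP1, MMP3, MMP12 and MMP13. The cluster holds all 3 secreted collagenases of the table and was close to silent, with 4 genes at 0 in every library and 1, MMP27, tested. MMP27 had 0.156, 1.38 and 0.802 CPM in Yorkshire and 0.355, 2.60 and 0.783 CPM in Wei, at 0.69 ± 0.82 (edgeR adjusted p = 0.649) and at -0.38 without Wei replicate 2. MMP12, or macrophage elastase, was read in each Wei library and in no Yorkshire library, but by 2, 1 and 2 counts.

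**Figure D3:**
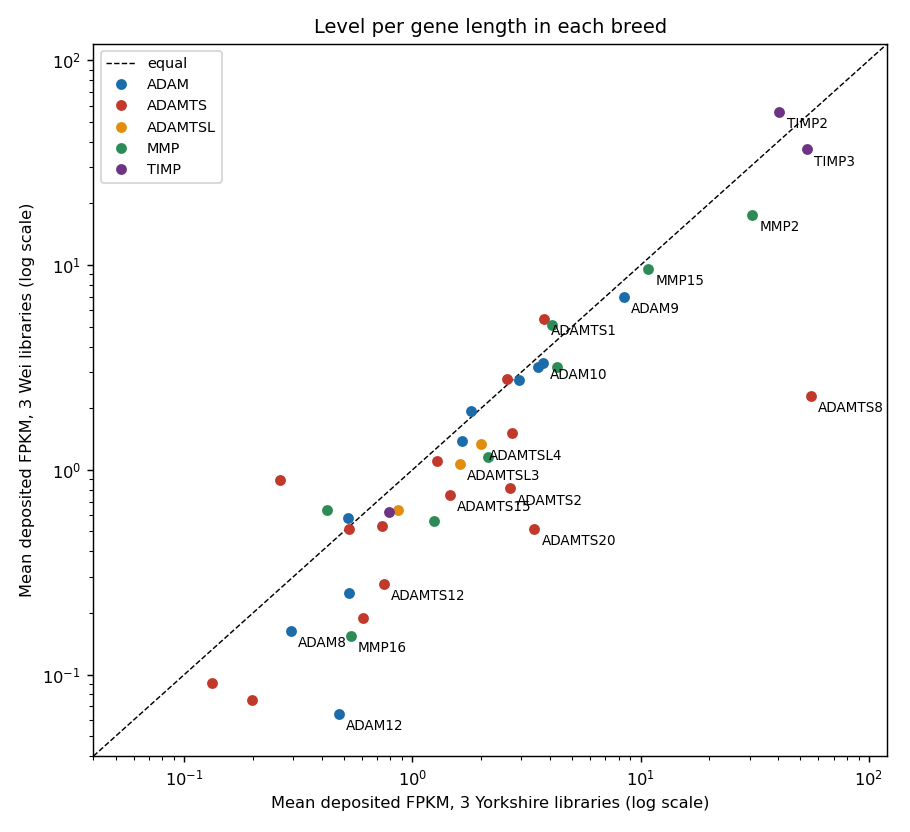
Mean deposited FPKM of the tested members in the 3 Wei libraries (vertical log axis) against the 3 Yorkshire libraries (horizontal log axis), coloured by family, with a dashed line of equal levels. TIMP2, TIMP3 and MMP2 are at the upper end in both breeds, ADAMTS8 is high in the mean of Yorkshire only, and ADAM12 is at the lower end.

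The TIMPs had the largest summed FPKM of the 5 families in every library except Yorkshire replicate 1, where the ADAMTS sum was larger, and TIMP2 and TIMP3 had fold changes of opposite sign. None of the 3 was called by edgeR, DESeq2 or limma voom, and at an unadjusted p under 0.05 there was 1 lower and 1 higher. TIMP2, which blocks MMPs and also tethers the MMP2 proenzyme to MMP14 for activation, lies at chr12:3293953-3337924. Its level was 38.6, 40.1 and 52.0 CPM in the Yorkshire libraries and 62.3, 55.9 and 66.2 CPM in the Wei libraries. In CPM all Wei libraries were above all Yorkshire libraries, with a log2 fold change of 0.50 ± 0.15 and an edgeR adjusted p of 0.0962. In deposited FPKM the values were 33.4, 37.1 and 50.9 against 63.1, 49.9 and 54.9, and there the groups overlapped by 1 library.

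TIMP3 is bound to the matrix and inhibits ADAM17 and the aggrecanases as well as MMPs. At chr5:11965791-11975326, it had 21.6, 29.1 and 30.7 CPM in Yorkshire and 16.6, 21.8 and 19.1 CPM in Wei, a log2 fold change of -0.50 ± 0.18 (edgeR adjusted p = 0.134). Wei replicate 2 was just above the lowest Yorkshire library, so the groups overlapped. TIMP4 was scarce, at 0.260 to 0.608 CPM, and was at -0.22 ± 0.48. The summed FPKM of the 3 TIMPs overlapped between breeds, at 73.5, 95.1 and 115 in Yorkshire and 99.2, 91.4 and 89.3 in Wei.

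The order of TIMP3 and TIMP2 by level per length was opposite in the 2 breeds, and it rests on the transcript lengths behind FPKM. In CPM, which is not scaled to length, TIMP2 was above TIMP3 in every library of both breeds. In deposited FPKM TIMP3 was above TIMP2 in all 3 Yorkshire libraries, with ratios of 1.18, 1.54 and 1.25, and below it in all 3 Wei libraries, with 0.565, 0.824 and 0.610. The ratio of MMP2 to TIMP2 was 0.716, 0.967 and 0.643 in Yorkshire and 0.227, 0.369 and 0.363 in Wei, and that of MMP14 to TIMP2 was 0.102, 0.114 and 0.103 in Yorkshire and 0.0404, 0.0698 and 0.0630 in Wei. None of these ratios overlapped between breeds. Each of the 3 had a two-sided exact permutation p of 0.1, the smallest that 3 against 3 libraries can give, and a Benjamini-Hochberg value of 0.15 over the 6 ratios computed. The ratios were chosen after their genes' values were seen, and RNA ratios are not ratios of active protein. The other 3 ratios did not hold TIMP2. MMP2 to TIMP3 (0.583 ± 0.0603 in Yorkshire and 0.481 ± 0.1 in Wei, SD, n = 3 each) and ADAMTS8 to ADAMTS15 (127, 4.9 and 16.7 against 7.95, 1.06 and 0.676) overlapped, each with an exact permutation p of 0.2. MMP2 to MMP14 was 7.01, 8.51 and 6.26 in Yorkshire and 5.63, 5.28 and 5.76 in Wei, without overlap (exact permutation p = 0.1).

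**Figure D4:**
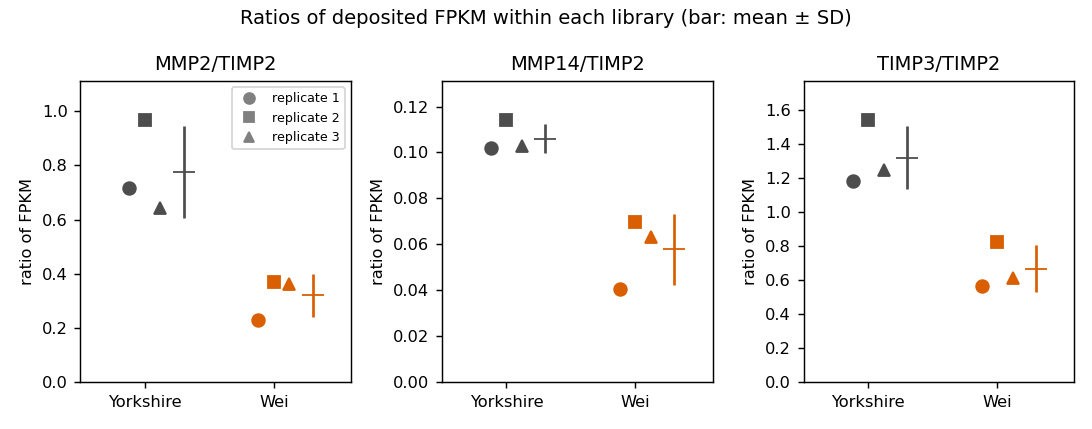
Ratios of deposited FPKM within each library, with the breeds on the horizontal axis, marker shapes for the replicates and bars for mean ± SD of 3. MMP2/TIMP2 lies between 0.643 and 0.967 in Yorkshire and between 0.227 and 0.369 in Wei, and TIMP3/TIMP2 is above 1 in Yorkshire and below 1 in Wei.

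Over the libraries, the lean was not carried by a single one. The median over tested members of log2 CPM centred on each gene's mean was 0.13, 0.20 and 0.36 in the Yorkshire libraries and -0.38, -0.14 and -0.18 in the Wei libraries. Wei replicate 1, the lowest for the members, was also the lowest for the summed fibroblast markers (586 CPM) and muscle fibre markers (82437 CPM). Yorkshire replicate 3, the highest for the members, had 3161 CPM of fibroblast markers, below the 3450 CPM of Yorkshire replicate 2. What sets the order of the libraries was not tested. Leaving out each library in turn gave member medians from -0.32 to -0.62.

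**Figure D5:**
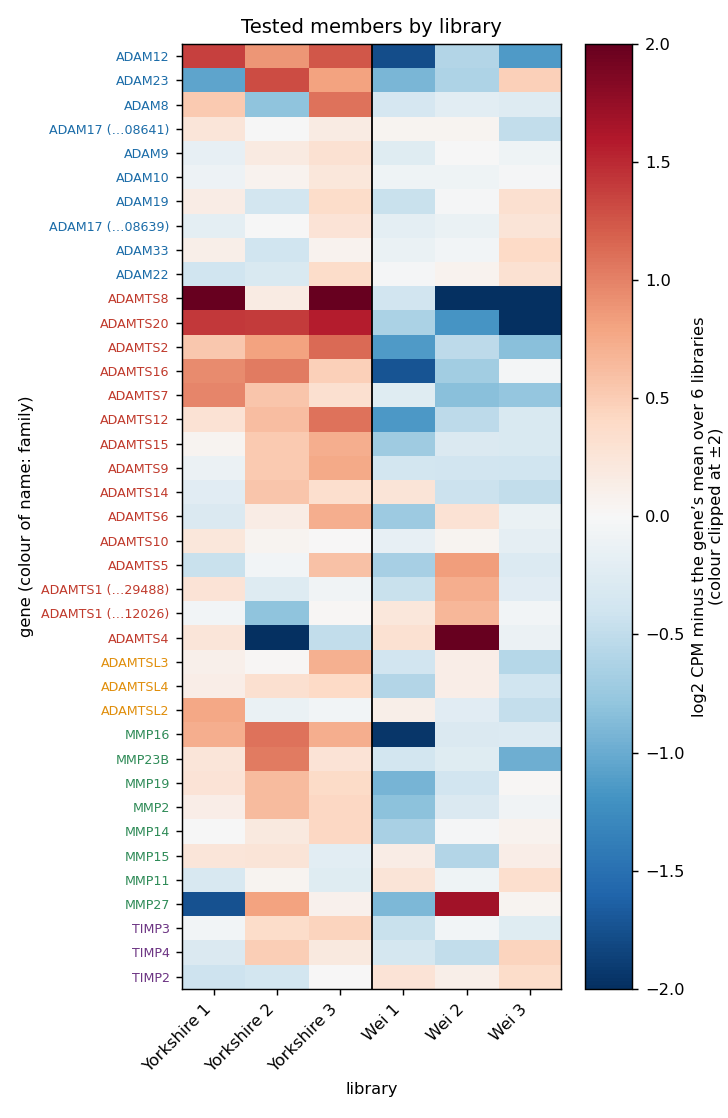
Log2 CPM of each tested member centred on its mean over 6 libraries (colour scale from -2 to 2), with libraries in columns and genes in rows by family. The Yorkshire columns are mostly above the gene mean and the Wei columns mostly below it, while ADAMTS1, ADAMTS4 and ADAMTS5 are highest in Wei replicate 2.

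The proteins that metalloproteinases cut were read from lists of known substrates. The share of all genes tested that edgeR called lower was 2.35%. Among matrix substrates of ADAMTS enzymes, 10 of 14 genes in the table were tested, all 10 had negative fold changes (median -0.88), and 2 were called lower. These were BGN (biglycan, a small proteoglycan) at -1.15 ± 0.22 with an edgeR adjusted p of 0.0329, and COL5A1 (a chain of type V collagen, which ADAMTS2 trims) at -1.17 ± 0.27 with 0.0462. VCAN, the versican gene and the main substrate of the proteoglycanases, did not pass, at -0.60 ± 0.33 (edgeR adjusted p = 0.305). Among matrix substrates of MMPs, all 9 tested genes had negative fold changes (median -0.52) and 4 were called lower. Of these, COL4A1 and COL4A2 (basement membrane collagen) were at -0.93 ± 0.13 and -1.01 ± 0.14, each with an edgeR adjusted p of 0.0115. SPARC (a collagen-binding protein) was at -1.28 ± 0.30 and SPP1 (osteopontin) at -2.25 ± 0.52, each with an edgeR adjusted p of 0.0468. With a library left out, BGN stayed called only without Wei replicate 3 and COL5A1 only without Yorkshire replicate 1. SPARC stayed called only without Wei replicate 1 and SPP1 only without Yorkshire replicate 2. In limma voom SPP1 was not called. Both lists share genes with the fibroblast list or with each other, and that list's sums are given above.

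Proteins shed by ADAM10 and ADAM17 moved both ways, with 2 called lower and 3 called higher of 17 tested and a median of -0.03 (all genes tested: 2.35% lower, 2.73% higher). The higher ones were IL6R, the interleukin 6 receptor (1.78 ± 0.25 on the row with more reads, edgeR adjusted p = 0.0119), and the growth factors EREG (2.65 ± 0.42, adjusted p = 0.0176) and BTC (0.99 ± 0.18, adjusted p = 0.0256). The lower ones were CD44, the hyaluronan receptor (-0.93 ± 0.20, edgeR adjusted p = 0.0392), and JAG1, a Notch ligand (-0.65 ± 0.15, adjusted p = 0.0485). CD44 and JAG1 were called in no fit that left out a library. EREG stayed called only without Wei replicate 2, and BTC only without Yorkshire replicate 1 or without Wei replicate 3. EREG was scarce, at no more than 0.979 CPM in a library. It had 3, 4 and 3 counts in the Yorkshire libraries and 15, 14 and 20 in the Wei libraries. No Yorkshire library was above the low-count cutoff for EREG, and it was tested because of its Wei reads. Of the 7 tested partners that mature or transport ADAM10 and ADAM17, 0 were called by edgeR or limma voom and 1 higher by DESeq2, with 1 at an unadjusted p under 0.05 and a median of 0.10. TSPAN17, a tetraspanin that binds ADAM10, had 33.1, 33.6 and 29.8 CPM in Yorkshire and 39.5, 47.5 and 55.2 CPM in Wei (0.56 ± 0.15, edgeR adjusted p = 0.0699), and RHBDF1, which carries ADAM17 to the cell surface, was at -0.35 ± 0.15.

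Other arms of the system gave no call in edgeR. Of all genes tested, 11.8% were lower and 11.4% higher at an unadjusted p under 0.05 in edgeR. DESeq2 called 3.79% of its tested genes lower and limma voom 2.13%. Of the 4 tested genes for other inhibitors and clearance, LRP1, the receptor that takes up protease complexes, was at 0.08 ± 0.20 and TFPI2 at -0.12 ± 0.20. RECK, a membrane-anchored MMP inhibitor named after its values were seen, was at -0.75 ± 0.19 (edgeR adjusted p = 0.0595) with non-overlapping groups. It was the 1 gene of this list with an unadjusted p under 0.05, and DESeq2 called it while limma voom did not. Of 8 tested activators of the proenzymes, 7 had negative fold changes (median -0.48), and none was called by edgeR, DESeq2 or limma voom. At an unadjusted p under 0.05 there were 0 in edgeR, 1 lower in DESeq2 and 3 lower in limma voom. FURIN, which removes the propeptide of membrane-type MMPs and ADAMs, had the 1 positive value, 0.22 ± 0.15, and PLAT, a plasminogen activator, was at -0.30 ± 0.26. Of 12 other proteases or enhancers that act on matrix, 10 had negative fold changes (median -0.50), 5 had an unadjusted p under 0.05, and DESeq2 called 1 and limma voom 0. The cathepsin gene CTSB was at 0.08 ± 0.16 and HTRA1 at -0.41 ± 0.17.

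Leaving out a library also changed calls in the substrate, pathway and marker lists: of 15 genes called with all libraries, 8 remained called without Yorkshire replicate 1, 1 (SPP1) without Yorkshire replicate 2 and 5 without Yorkshire replicate 3, and 5, 7 and 6 without Wei replicates 1, 2 and 3. IL6R, COL4A1, COL4A2 and CHRNG were called in each of those fits except the 1 without Yorkshire replicate 2.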

How the data were processed

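RNA was extracted with TRIZOL and made into libraries with a TruSeq RNA kit, per the labels' protocols. CASAVA 1.7, TopHat2 2.0.9, edgeR and the Sscrofa10.2 build are named in the submitters' processing notes, and the read counter, annotation release and strand setting were not given in the sources used here. The authors deposited 1 table with raw counts and FPKM per gene and library, per the file headers. Overlapping genes can therefore share reads (ADAMTS12 with TARS, the ADAM17 rows with IAH1 and ITGB1BP1, and ADAMTS7 with ENSSSCG00000022711, which has no symbol).

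The counts were tested with edgeR 4.0.16 (R 4.3.3): filterByExpr with a minimum count of 10, TMM factors, glmQLFit and glmQLFTest with breed as the only term over all 6 libraries, and Benjamini-Hochberg adjustment over 13209 genes at 0.05. The common biological coefficient of variation was 21.8%. DESeq2 1.42.0, limma voom 3.58.1, other scalings, filters and thresholds, a replicate block and leaving out each library were alternatives, and a fit without mitochondrial genes and ACTA1 was added after seeing the data. The deposited FPKM were used for levels and ratios only. The procedure was tested on simulated data. No 2 libraries agreed within sampling noise (lowest chi-square per degree of freedom 26.3). Total counts set the precision: 3 counts over all libraries are 0.0241 CPM.

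Members and lists were chosen with earlier results of these data known. Members named with full values were all those called and, in each family, the 2 with the highest mean FPKM and the 2 with the smallest p among those not called. Values per library are also given for ADAM23, ADAM28, ADAMTS4, ADAMTS7, ADAMTS9, ADAMTS16, MMP11, MMP12, MMP14 and MMP27, which that rule does not name. Others are given more briefly. From each pathway list, up to 4 called genes or otherwise the 2 with the highest mean CPM were named, with further names chosen after their values were seen (VCAN, COMP, RECK, JAG1). The remaining marker lists gave no call among 2 mast cell, 4 Schwann cell and 6 muscle fibre genes tested (edgeR), 0 neutrophil genes were tested, and the adipocyte list had 1 of 3 higher, PLIN4. No protein or promoter sequences were used here.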

Additional observations from a re-analysis of the deposited data

How the results depend on the processing

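With edgeR and all libraries 4 members were lower in Wei and 0 higher. DESeq2 called 9 lower (3.79% of all genes), an adjusted p under 0.01 left 0 (0.144%), and an adjusted p under 0.10 gave 11 lower (5.49%) and 1 higher (TIMP2, 5.63%). RLE size factors gave 4 lower (2.29% of all genes), library size alone 5 (1.7%) and no count filter 5 (1.88%). A filter of 1 CPM gave 3 (2.65%), limma voom 3 (2.13%), and leaving out mitochondrial genes and ACTA1 4 (2.36%). Leaving out each library gave 0 (without Yorkshire replicate 2) to 3 lower, in fits that called 0.168% to 0.985% of all genes lower. In all settings apart from an adjusted p under 0.10 the number higher stayed 0. The member median ran from -0.32 to -0.62. Over the left-out fits MMP15 ran from -0.30 to 0.04, MMP27 from -0.38 to 1.33, ADAMTS5 from -0.57 to 0.37, the ADAMTS1 row ENSSSCG00000029488 from -0.32 to 0.32, ADAM33 from -0.05 to 0.25, ADAM19 from -0.30 to 0.08 and the ADAM17 row ENSSSCG00000008639 from -0.21 to 0.10. ADAMTS5, at 0.01, was also -0.05 with library size alone, -0.01 with the 1 CPM filter and -0.11 in limma voom. The cause of these shifts was not tested.

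With the replicate number as a block, 6 members were lower (the same 4, ADAMTS8 and MMP2) and 0 higher, where 1.66% of all genes were lower. In that fit ADAMTS5 was at -0.07. Same-numbered libraries' deviations correlated at 0.14, -0.0066 and 0.022, so the numbers were not taken to pair the libraries, and Yorkshire replicate 2 correlated best with Wei replicate 3 (0.032). Genes with few reads, such as ADAM12, limit what this depth can show.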

Other observations

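Some genes of these families stand outside the 61 rows. TIMP1, on X, which is made by many stromal cells and blocks most MMPs, had 5.86, 4.42 and 4.48 CPM in the Yorkshire libraries and 3.31, 2.99 and 4.21 CPM in the Wei libraries. All Wei libraries were below all Yorkshire libraries, with a log2 fold change of -0.49 ± 0.22 and an edgeR adjusted p of 0.231. TIMP1 and TIMP3 thus had negative fold changes of similar size, and TIMP2 a positive one, none of them called.

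Rows without a symbol in the deposited table can be named through an Ensembl identifier list, and 2 of the genes found that way were expressed. ADAM15, a membrane protease of endothelial and other cells, had 15.9, 11.8 and 14.2 CPM in Yorkshire and 15.5, 12 and 13.5 CPM in Wei, at -0.03 ± 0.17 (edgeR adjusted p = 0.933). ADAMTSL5 was at 0.21 ± 0.34 (edgeR adjusted p = 0.750), with 0.719 to 1.17 CPM in Yorkshire and 0.845 to 1.32 CPM in Wei. Both overlapped between the breeds.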
